A study of Homo sapiens with 4 samples.

Results

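The complement components and regulators are 9 genes of 53777 with an Ensembl identifier in the deposited table: C1R, C1S, C3, CFB, CFI, SERPING1, CD46, CD55 and CD59. They were taken by symbol and cover the proteases, the central component and the inhibitors of the cascade. The choice was made with the values of these same libraries in view, so the members' differences between groups are given as a description and carry no p-value. The symbols matched 10 rows, because CFB has a further row, ENSG00000244255, which was listed at 0 FPKM in every library. Of the 9 genes, 7 reached a mean of 1 FPKM over the libraries and entered the fit, while CFI and SERPING1 did not.

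RNA was sequenced from NUGC3, an established human gastric cancer cell line, in 4 libraries. In the scramble group (2 libraries) the cells had been given a scramble control, and in the NIPBL knockdown group (2 libraries) a short hairpin RNA against NIPBL, the gene of the factor that loads cohesin onto chromatin. The knockdown libraries came from different hairpins, numbered 1 and 7, with 1 library each, and are called hairpin 1 and hairpin 7 here. Every sample title includes DOX and every column header also includes "combined", neither of which is explained. The label of scramble 2 repeats that of scramble 1 with a suffix. Nothing says that the libraries of a group are separate cultures, so errors and p-values measure how far these libraries lie apart, which may be technical.

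Complement is a cascade of plasma and tissue proteins that marks and lyses cells. The classical pathway starts when the proteases C1r and C1s are activated on C1q, the alternative pathway runs on C3 and factor B, and both cleave C3 and lead to the membrane attack complex. The liver makes most of the plasma pool, but epithelial and tumour cells make several of these proteins too. They also carry CD46, CD55 and CD59 on the surface, which stop the cascade on the cell's own membrane.

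NIPBL, the targeted gene, was at 23.92 and 23.11 FPKM in scramble against 7.27 FPKM for hairpin 1 and 9.17 FPKM for hairpin 7 (limma, adjusted p = 0.0217). The adjusted p was 0.257 without scramble 1, 0.262 without scramble 2, 0.267 with these libraries averaged and 0.118 with no filter on low values, and over all alternatives it ran from 0.00880 to 0.267 (limma). FPKM counts fragments per unit of transcript length and of sequencing depth, and the files give no read depth. Epithelial markers were present, with 8 of 8 at a mean of at least 1 FPKM and EPCAM between 166.28 and 209.83 FPKM. MUC5AC, the gastric surface mucin gene, lay between 0.01 and 0.03 FPKM. TFF1 was listed at 0 in scramble 1, with 0.17 FPKM in scramble 2, 2.48 FPKM for hairpin 1 and 1.02 FPKM for hairpin 7. MUC6 and SOX2, at or below 0.49 FPKM, lay lower with both hairpins. Of 8 gastric lineage markers only GATA6 reached a mean of 1 FPKM over the libraries. Only SERPINA1 among 8 hepatocyte markers, CD68 among 8 leukocyte markers and COL1A1 among 8 fibroblast markers reached it, and 0 of 5 endothelial markers did. The summed leukocyte markers were at 13.3 and 17.74 FPKM in scramble and 32.54 and 38.22 FPKM with the hairpins, almost all of it CD68, with PTPRC, MS4A1 and TYROBP listed at 0 throughout. The summed epithelial markers ranged from 5169 to 5226 FPKM in scramble and from 4286 to 5208 FPKM with the hairpins. KRT8 and KRT18, which make up most of that sum, lay below scramble with both hairpins, as did EPCAM. The other 5 (KRT19, the third largest, CLDN4, ELF3, CDH1 and MUC1) lay above it, and the median log2 change of the 8 was 0.42. The part of these differences in the results below was not tested, and in bulk RNA fewer cells of a type cannot be told apart from less RNA per cell.

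Among the members the levels spanned from none listed to those of the most abundant transcripts. C3 had a scramble mean of 251 ± 6.10 FPKM and CD59 of 247 ± 2.26 FPKM (SD, n = 2 each), which placed them at ranks 324 and 331 among the 12834 genes tested. These means differ by less than the spread between the C3 libraries. CD46 followed with 103 ± 2.04 FPKM, CD55 with 91.2 ± 1.70 FPKM and C1R with 27.6 ± 0.446 FPKM (SD, n = 2 each). CFB, at 4.79 ± 0.530 FPKM, and C1S, at 4.47 ± 0.248 FPKM (SD, n = 2 each), were not separated beyond their spread. Both soluble regulators lay at the bottom. CFI, the protease that inactivates C3b and C4b, was listed at 0 in all libraries, and SERPING1, the inhibitor of C1r and C1s, was at 0.06 FPKM in scramble 2 and listed at 0 elsewhere. An exact 0 in this table can be a failed estimate: PIGY, a gene looked up after its values were seen, was at 23.09 FPKM in scramble 2 and listed at 0 in the other libraries.

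**Figure D1:**
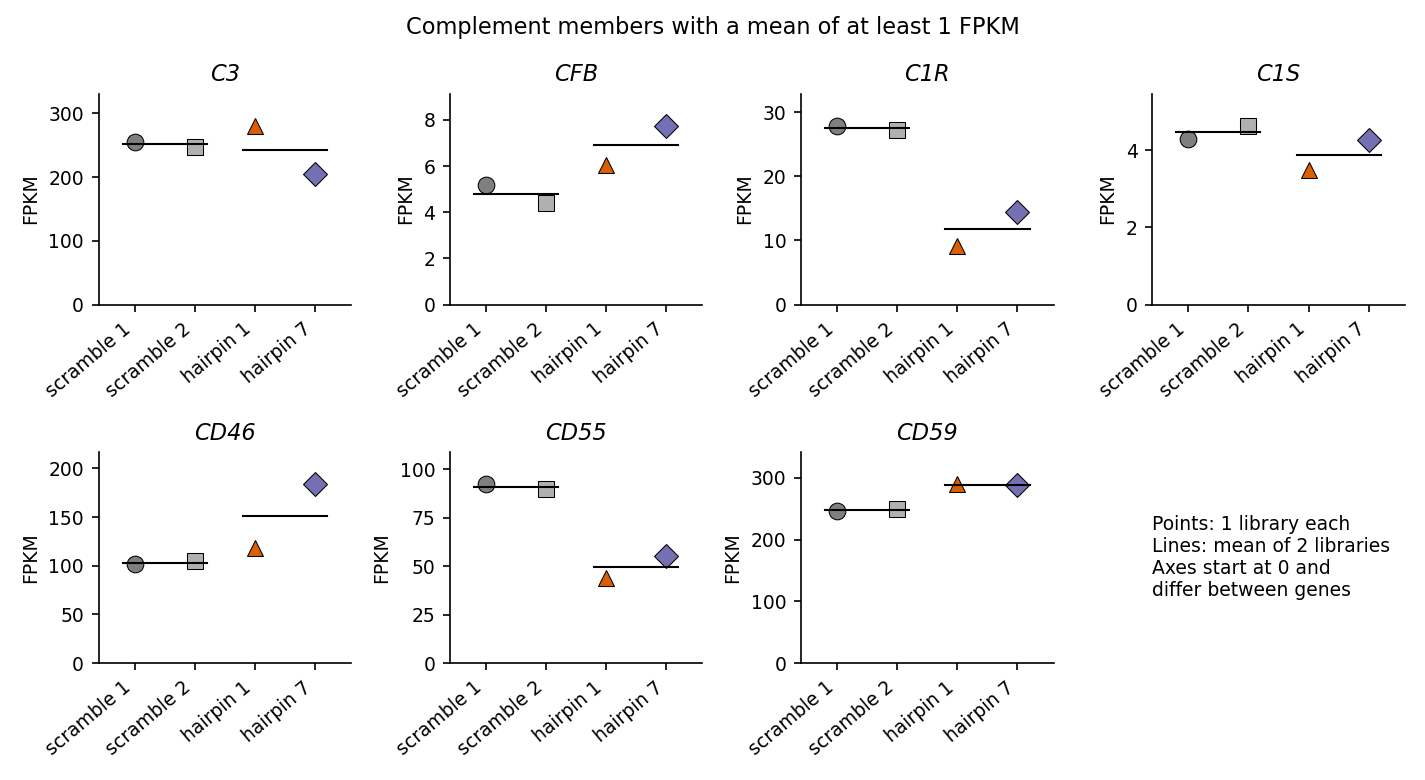
FPKM (vertical axes, each from 0) of the 7 members with a mean of at least 1 FPKM in each library (horizontal axes), with 1 point per library and lines at the mean of each group of 2 libraries. C1R and CD55 sit lower with both hairpins, CD46, CFB and CD59 sit higher, and the groups of C3 overlap.

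C1R, the protease that starts the classical pathway by cleaving C1s, showed the widest gap. The scramble pair gave 27.88 and 27.25 FPKM, hairpin 1 gave 9.17 FPKM and hairpin 7 gave 14.45 FPKM. Both hairpin libraries lay far below the scramble pair, and hairpin 1 was the lower. The knockdown mean of 11.8 ± 3.73 FPKM (SD, n = 2) was 42.8% of scramble, a log2 change of -1.19 ± 0.22 (SE). All log2 changes here subtract the scramble mean from the knockdown mean of log2(FPKM + 1), a scale that shrinks the change of low genes. Among all genes tested, 2.88% had a larger absolute log2 change. C1S, whose product cleaves C4 and C2, was at 4.29 and 4.64 FPKM in scramble, 3.49 FPKM with hairpin 1 and 4.28 FPKM with hairpin 7. Its groups were separated only by the last printed decimal, between scramble 1 and hairpin 7. The ratio of C1R to C1S in FPKM was 6.50 and 5.87 in scramble, 2.63 with hairpin 1 and 3.38 with hairpin 7, so these partner proteases, which work as a tetramer, were closer to each other in level in the knockdown libraries.

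The promoter of C1R is shown because its transcript was farthest from scramble among the members. It is the first of 2 windows that RefSeq lists for the gene (GRCh38.p14), from 250 bases before to 50 bases after a transcript start. Capitals mark matches to any of 10 motifs searched on both strands: IRF as GAAANNGAAA, GAS as TTCNNNGAA, E-box as CACGTG, cyclic AMP element as TGACGTCA, AP-1 as TGANTCA, the CCAAT box by those letters alone, TATA as TATAAA, the GC box as GGGCGG, C/EBP as TTGCNNAA and a CTCF core as CCNNNAGNNGGC.
C1R promoter, chr12:7092396-7092695, minus strand: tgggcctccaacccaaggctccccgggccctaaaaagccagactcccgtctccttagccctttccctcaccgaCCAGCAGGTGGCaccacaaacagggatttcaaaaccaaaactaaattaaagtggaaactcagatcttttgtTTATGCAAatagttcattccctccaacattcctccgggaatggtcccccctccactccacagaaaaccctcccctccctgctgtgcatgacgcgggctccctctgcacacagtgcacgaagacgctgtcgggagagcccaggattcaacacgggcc
This window held a CTCF core match, 177 bases before the start, and a C/EBP match, 106 bases before it. The CTCF core letters occur in 10.6% and the C/EBP letters in 10.5% of all 35116 promoter windows of this length. It was the only member window, of 11 for 6 members, with the CTCF core. The other C1R window held a GAS match, TTCCTGGAA, 86 bases before its start, and a C/EBP match. Such matches describe the letters and show no binding, and no match in the member windows overlapped another.

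C3, which both pathways cleave and whose fragment C3b tags surfaces, was at 255.62 and 246.99 FPKM in scramble, 280.68 FPKM for hairpin 1 and 205.16 FPKM for hairpin 7. The hairpins lay on opposite sides of the scramble pair, at 112% and 81.6% of its mean. The log2 change was -0.07 ± 0.17 (SE), and 84.1% of genes tested had a larger absolute one. C3 was the 1 tested member whose groups overlapped.

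CFB encodes factor B, the protease of the alternative pathway convertase. It was at 5.16 and 4.41 FPKM in scramble, 6.04 FPKM with hairpin 1 and 7.75 FPKM with hairpin 7. Both hairpin libraries lay above both scramble libraries, and hairpin 7 was the higher. The knockdown mean of 6.90 ± 1.21 FPKM (SD, n = 2) was 144% of scramble, a log2 change of 0.44 ± 0.17 (SE), and scramble 2 minus scramble 1 was -0.19 on that scale. C3 exceeded CFB 49.5-fold and 56.0-fold in the scramble libraries, 46.5-fold with hairpin 1 and 26.5-fold with hairpin 7, in FPKM.

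The CFB promoter is shown because it was the only member window with an IRF match, the letters read by interferon regulatory factors, and because genes of interferon signalling are described further on. Capitals mark the same motifs.
CFB promoter, chr6:31945845-31946144, plus strand: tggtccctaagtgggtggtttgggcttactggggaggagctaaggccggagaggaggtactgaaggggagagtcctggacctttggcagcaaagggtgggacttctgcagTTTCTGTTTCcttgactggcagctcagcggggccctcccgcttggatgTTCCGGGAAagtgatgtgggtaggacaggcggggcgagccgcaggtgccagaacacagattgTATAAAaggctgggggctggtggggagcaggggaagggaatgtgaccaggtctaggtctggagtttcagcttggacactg
From 5′ to 3′ the capitals are an IRF match on the minus strand, 140 bases before the start, a GAS match, 92 bases before it, and a TATA box, 30 bases before it. The IRF letters occur in 3.57%, the GAS letters in 7.66% and the TATA letters in 11.5% of all windows. GAS letters were found in 4 of the 11 member windows, 1 of CFB, 1 of C1R and 2 overlapping ones of CD59.

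CD55, or decay-accelerating factor, breaks up the C3 convertases and is held in the membrane by a GPI anchor. It was at 92.38 and 89.97 FPKM in scramble, 43.80 FPKM with hairpin 1 and 55.16 FPKM with hairpin 7. Each hairpin library lay well below the scramble pair, at 48.0% and 60.5% of its mean. The knockdown mean was 49.5 ± 8.03 FPKM (SD, n = 2), with a log2 change of -0.88 ± 0.14 (SE), and 5.58% of genes tested had a larger absolute change. As for C1R, hairpin 1 gave the lower value.

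CD46, or membrane cofactor protein, helps factor I to inactivate C3b and C4b. It was at 101.81 and 104.70 FPKM in scramble, 118.39 FPKM with hairpin 1 and 183.76 FPKM with hairpin 7. Both hairpin libraries were higher than scramble, but by unequal amounts, at 115% and 178% of its mean. The log2 change was 0.51 ± 0.22 (SE), and the difference between the hairpins, 0.63 on the log2 scale, was larger than that. The SD of this difference over all genes tested was 0.45.

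CD59, or protectin, blocks assembly of the membrane attack complex and is also GPI-anchored. It was at 245.70 and 248.90 FPKM in scramble, 289.86 FPKM for hairpin 1 and 288.51 FPKM for hairpin 7. The hairpin libraries lay next to each other and above the scramble pair. The knockdown mean of 289 ± 0.955 FPKM (SD, n = 2) was 117% of scramble, a log2 change of 0.22 ± 0.09 (SE), which is close to the median absolute change of 0.23 over all genes tested. Among the members, CD59 combined a small difference with the closest agreement within groups.

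The CD55 and CD46 promoters are shown together because both genes protect the same surface, sit on chromosome 1 and lay on opposite sides of scramble. The CD46 window is the first of 2 that RefSeq lists, which overlap and start 16 bases apart.
CD55 promoter, chr1:207321428-207321727, plus strand: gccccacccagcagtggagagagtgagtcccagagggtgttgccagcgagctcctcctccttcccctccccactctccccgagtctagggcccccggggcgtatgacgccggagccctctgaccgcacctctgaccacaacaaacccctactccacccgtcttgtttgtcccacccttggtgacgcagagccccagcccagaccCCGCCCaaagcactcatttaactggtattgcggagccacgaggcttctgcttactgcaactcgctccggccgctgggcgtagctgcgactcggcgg
CD46 promoter, chr1:207751788-207752087, plus strand: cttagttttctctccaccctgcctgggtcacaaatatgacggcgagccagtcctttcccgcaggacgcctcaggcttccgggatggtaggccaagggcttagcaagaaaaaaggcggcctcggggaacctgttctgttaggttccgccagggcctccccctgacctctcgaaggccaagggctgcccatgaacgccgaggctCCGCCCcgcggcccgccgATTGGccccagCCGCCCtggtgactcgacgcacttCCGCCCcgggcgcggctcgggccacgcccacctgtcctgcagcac
The capitals are 1 GC box in CD55, 46 bases before the start, and 3 GC boxes and 1 CCAAT box in CD46, all read on the minus strand. GC box letters occur at least once in 45.0% and CCAAT letters in 34.6% of all windows. The share of windows with 3 GC boxes, as in CD46, was not counted. Neither window held IRF, GAS, E-box, cyclic AMP, AP-1, TATA, C/EBP or CTCF core letters. For CD59 the table lists 4 windows, 1 of which held 3 AP-1 matches. AP-1 letters occur at least once in 7.71% of all windows. CCAAT, GC box and C/EBP matches were also found in CD59 windows. CFI has 1 window. The table was matched for C1R, CFB, CFI, CD46, CD55 and CD59, and not for C3, C1S and SERPING1.

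The 3 membrane regulators together summed to 439.9 and 443.6 FPKM in scramble, 452.1 FPKM for hairpin 1 and 527.4 FPKM for hairpin 7. Within that sum CD55 made up 21.0% and 20.3% in scramble, 9.69% with hairpin 1 and 10.5% with hairpin 7. The hairpins gave similar shares, both far from those of scramble. CD46 took 23.1% and 23.6% in scramble, 26.2% with hairpin 1 and 34.8% with hairpin 7. CD59 took 55.9% and 56.1% in scramble, 64.1% with hairpin 1 and 54.7% with hairpin 7. CD59 exceeded CD55 2.66-fold and 2.77-fold in scramble, 6.62-fold with hairpin 1 and 5.23-fold with hairpin 7, in FPKM. The regulator that acts on convertases thus took a smaller share of these transcripts in both knockdown libraries, while the share that grew most was that of CD59 with hairpin 1 and of CD46 with hairpin 7.

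**Figure D2:**
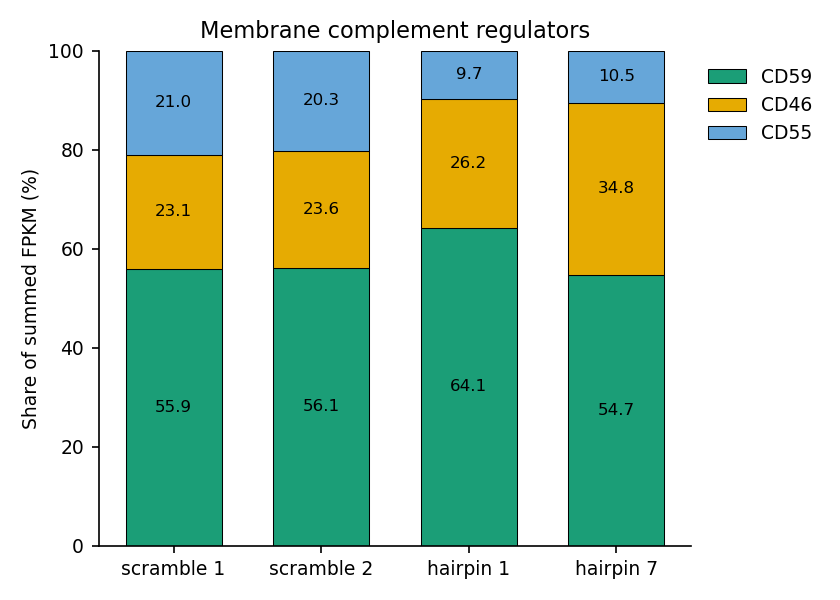
Share of the summed FPKM of CD46, CD55 and CD59 (vertical axis, %) taken by each gene in each library (horizontal axis), with shares printed in the bars. CD55 took 21.0% and 20.3% in the scramble libraries and 9.69% and 10.5% with hairpins 1 and 7.

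Over the fit, 0 of the 7 tested members passed an adjusted p under 0.05, where 2.56% of the 12834 genes tested did (limma, Benjamini-Hochberg over all genes tested). Both hairpins lay above both scramble libraries for 3 members (CFB, CD46 and CD59) and below for 3 (C1R, C1S and CD55), beside 29.5% and 30.8% of all genes. Nothing is read from these counts or those that follow, since the members were chosen with this contrast known. The members' median log2 change was -0.07 and that of all genes tested -0.01. Counts over the whole table rest on which libraries entered. With scramble 1 or scramble 2 left out 0 genes passed, members included. With hairpin 1 left out 4532 of the 12834 genes passed, 6 members among them, and with hairpin 7 left out 2915 genes did, 3 members among them. The fits with 1 hairpin library take its unseen spread to equal that of the scramble pair.

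The rest of the complement system was followed in a list of 49 other genes chosen by role. This list and the GPI anchor and cytokine lists below were drawn up with earlier results of these data known. Their counts and p-values are therefore a description and no independent test. Only 9 of the 49 reached a mean of 1 FPKM, and 14 were listed at 0 in every library. Of those 9 tested, 1 fell and 0 rose (limma, adjusted p under 0.05, against 1.11% lower and 1.45% higher over all genes), and the list's median log2 change was -0.24. The gene that fell was THBD, which encodes thrombomodulin. This endothelial and epithelial membrane protein is a cofactor in the activation of protein C and assists factor I. THBD was at 61.24 and 62.17 FPKM in scramble, 21.93 FPKM for hairpin 1 and 23.18 FPKM for hairpin 7. The hairpins gave nearly the same value, and the fall was to 36.5% of scramble (log2 change -1.41 ± 0.09 SE, limma, adjusted p = 0.0114). That call was lost in 4 settings: without scramble 1 the adjusted p was 0.213, without scramble 2 it was 0.223, with these libraries averaged 0.229 and with no filter on low values 0.0676, while over all alternatives it ran from 0.00742 to 0.229 (limma).

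The alternative pathway protease gene CFD was at 8.05 and 7.50 FPKM in scramble and 5.29 and 5.90 FPKM with hairpins 1 and 7 (limma, adjusted p = 0.132). C4BPB, the beta chain of C4b-binding protein, was at 65.06 and 68.37 FPKM in scramble, 34.43 FPKM with hairpin 1 and 59.41 FPKM with hairpin 7 (limma, adjusted p = 0.259). Its partner C4BPA, the alpha chain that carries the C4b-binding sites, lay between 0 and 0.12 FPKM, so the 2 chains of that regulator were far apart in level. C1QBP, a mitochondrial protein that can bind C1q, was at 231.00 and 229.09 FPKM in scramble, 205.99 FPKM with hairpin 1 and 134.97 FPKM with hairpin 7 (limma, adjusted p = 0.248). The chaperone gene CLU, the C1r-like protease gene C1RL, the integrin gene ITGB2 and C4A had adjusted p between 0.376 and 0.908 (limma). C4A and C4B are near-identical, so the split of reads between them is uncertain.

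Transcripts of C1q, C2 and C5, which the members would act with, lay below 1 FPKM. The 3 chains of C1q, on which C1r and C1s sit, were listed at 0 in all libraries. C2, the substrate of C1s, was at 0.41 and 0.40 FPKM in scramble, 0.13 FPKM with hairpin 1 and listed at 0 with hairpin 7. C5 lay between 0.12 and 0.32 FPKM, and 0 of 6 terminal pathway genes and 0 of 8 lectin pathway genes reached a mean of 1 FPKM. C3AR1, C5AR1 and C5AR2, the receptors for the released peptides, stayed at or below 0.09 FPKM. The component transcripts with a mean of at least 1 FPKM were C3, CFB and CFD of the alternative pathway and C1R, C1S, C1RL and C4A of the classical pathway.

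**Figure D3:**
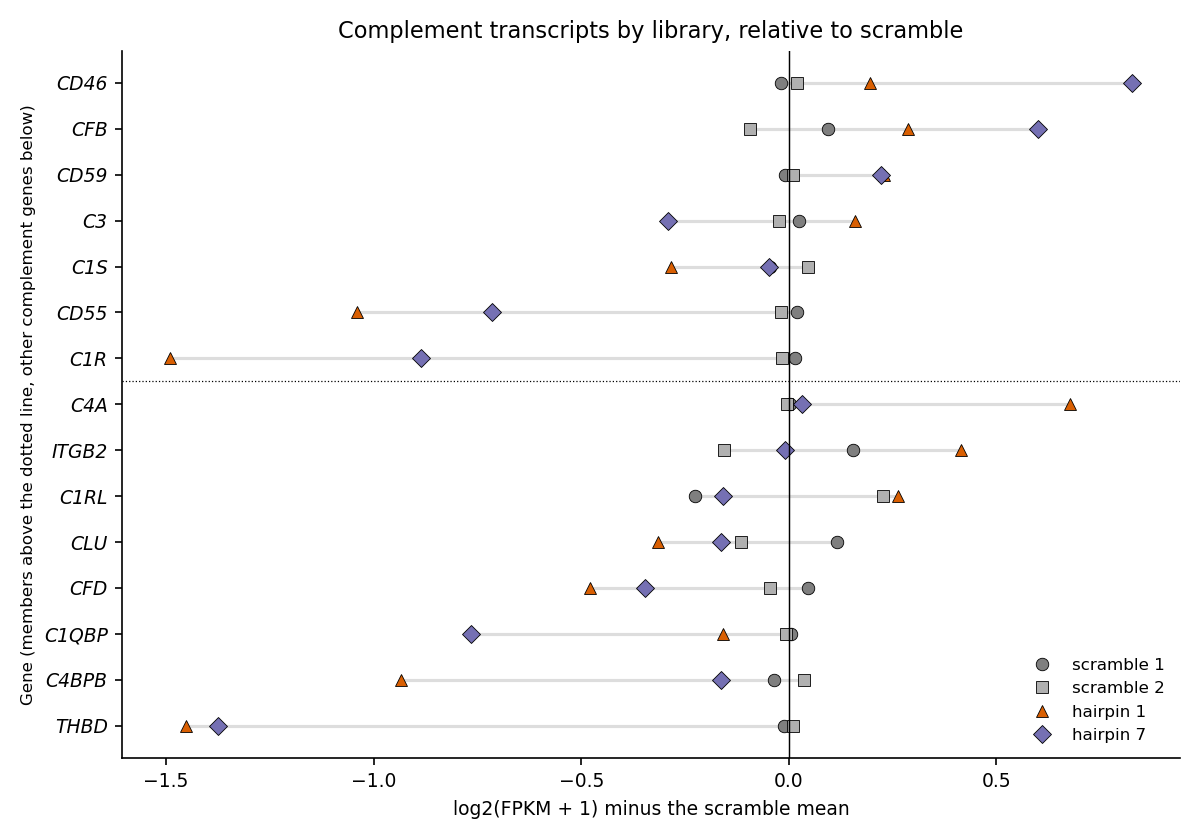
Difference of each library from the scramble mean on the log2(FPKM + 1) scale (horizontal axis) for 7 members above the dotted line and 8 other complement genes below it (vertical axis), with 1 point per library. THBD, C1R and CD55 lie well below scramble with both hairpins, and the hairpins fall on opposite sides of scramble for C3.

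Several members lie beside other complement genes, and these neighbours were looked up in RefSeq by order along the chromosome. On chromosome 12 the order is LPCAT3, C1S, C1R, C1RL. C1R was at 42.8% of scramble while C1S, next to it, was at 87.0%, and C1RL on its other side was at 4.95 and 7.14 FPKM in scramble, 7.35 FPKM with hairpin 1 and 5.23 FPKM with hairpin 7, with groups that overlap. For LPCAT3, a phospholipid enzyme gene, the log2 change was -0.24 ± 0.11 (SE, limma, adjusted p = 0.242). The wide gap of C1R was not seen at the genes beside it, though the difference between neighbours was not tested.

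On chromosome 1 the regulators of complement activation run in the order C4BPB, C4BPA, CD55, CR2, CR1, CR1L, CD46. CR1 and CR1L were at or below 0.01 FPKM, and CR2, the receptor for C3d, was at 0.30 and 0.35 FPKM in scramble, 0.16 FPKM with hairpin 1 and 0.05 FPKM with hairpin 7. High and nearly silent genes thus alternate, with C4BPB and CD55 below scramble and CD46 above it in both hairpin libraries. On chromosome 6, CFB follows C2 and precedes NELFE, a subunit gene of the elongation factor NELF. NELFE was at 95.89 and 96.66 FPKM in scramble and 81.13 and 74.59 FPKM with hairpins 1 and 7 (limma, adjusted p = 0.137). CFB was thus higher and NELFE lower in both hairpin libraries. Over all genes tested, 29.5% lay above and 30.8% below scramble in both. C2, at or below 0.41 FPKM in every library, was too low to be tested. Without strand information, reads from overlapping genes cannot be told apart.

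Of the other neighbours tested, TNFSF14 and GPR108 beside C3, PLA2G12A and GAR1 beside CFI, UBE2L6 beside SERPING1 and FBXO3 beside CD59, none passed (limma, adjusted p between 0.0935 and 0.760). TNFSF14, the gene of the cytokine LIGHT, was at 2.20 and 2.12 FPKM in scramble, 0.92 FPKM with hairpin 1 and 0.57 FPKM with hairpin 7. PLA2G12A was at 23.79 and 13.99 FPKM in scramble and 9.58 and 7.13 FPKM with hairpins 1 and 7. GAR1 was at 56.75 and 55.04 FPKM in scramble and 55.74 and 33.78 FPKM with hairpins 1 and 7. CFI, between PLA2G12A and GAR1, was listed at 0, which can be a failed estimate.

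**Figure D4:**
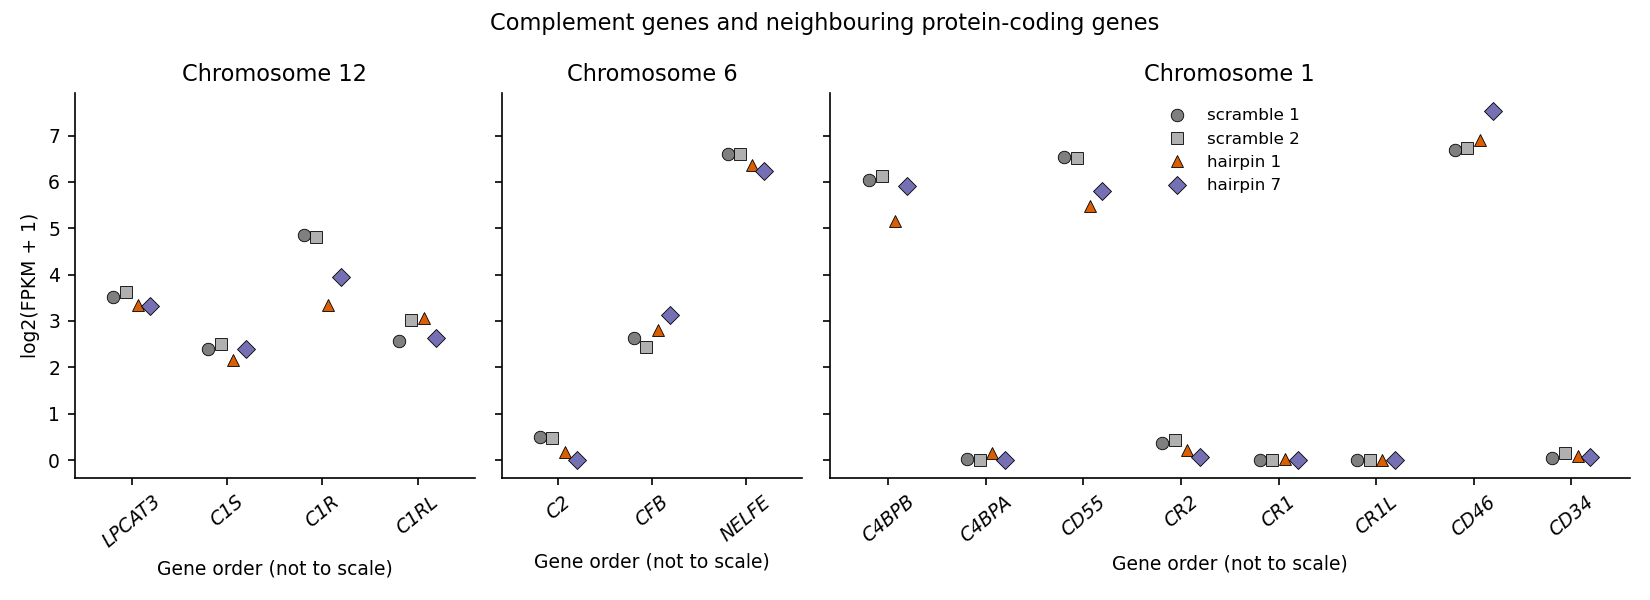
Levels as log2(FPKM + 1) (vertical axis) of members and neighbouring protein-coding genes in chromosome order, not to scale (horizontal axis), with 1 point per library. C1R stands out from C1S and C1RL, and CD55 and CD46 lie on either side of genes near 0.

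CD55 and CD59 reach the surface on a GPI anchor, so the 29 genes that make, attach or remodel the anchor were counted. All 29 were tested, 0 passed (limma, adjusted p under 0.05), and at an unadjusted p under 0.05 there were 4 higher and 1 lower. Over all genes tested 2.56% passed, and 13.6% were higher and 12.8% lower at the unadjusted p. The list's median log2 change was 0.11, against -0.01 for all genes tested. PIGL, the deacetylase of the pathway, was at 7.80 and 7.26 FPKM in scramble and 5.01 and 4.23 FPKM with hairpins 1 and 7 (limma, adjusted p = 0.0875). PIGV, a mannosyltransferase gene, PIGQ, of the first enzyme complex, and MPPE1, which trims the anchor, had log2 changes of 0.44, 0.38 and 0.42 (limma, adjusted p between 0.103 and 0.141). PIGA, the X-linked gene whose loss removes CD55 and CD59 from blood cells, was at 23.02 and 21.48 FPKM in scramble and 22.76 and 26.75 FPKM with hairpins 1 and 7.

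Interferons, interleukins and TNF are known to induce complement genes in epithelial cells, and 31 of their ligands, receptors, kinases, factors and inhibitors were listed. Of 27 tested, 2 rose and 0 fell (limma, adjusted p under 0.05, against 1.45% higher and 1.11% lower over all genes), with a median log2 change of 0.05. At an unadjusted p under 0.05 there were 6 higher and 6 lower, beside 13.6% and 12.8% of all genes. Those that rose were IRF9, with a log2 difference of 1.91 ± 0.15 and an adjusted p of 0.0161, and IL6, with 1.58 ± 0.18 and 0.0304 (SE, limma). Without scramble 1 or scramble 2 their adjusted p lay between 0.169 and 0.273 (limma), with no filter on low values it was 0.107 for IRF9 and 0.125 for IL6, with unnamed rows tested too 0.0582 for IL6, and over all alternatives between 0.00880 and 0.273. For STAT2 the log2 change was 0.62 ± 0.10 (SE, limma, adjusted p = 0.0563). IRF1 was at 35.26 and 34.91 FPKM in scramble, 25.60 FPKM with hairpin 1 and 19.58 FPKM with hairpin 7 (limma, adjusted p = 0.0919). IL1B was at 884.02 and 893.88 FPKM in scramble, 552.26 FPKM with hairpin 1 and 351.88 FPKM with hairpin 7 (limma, adjusted p = 0.0884), and IFNB1 and IFNG were listed at 0 throughout.

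**Figure D5:**
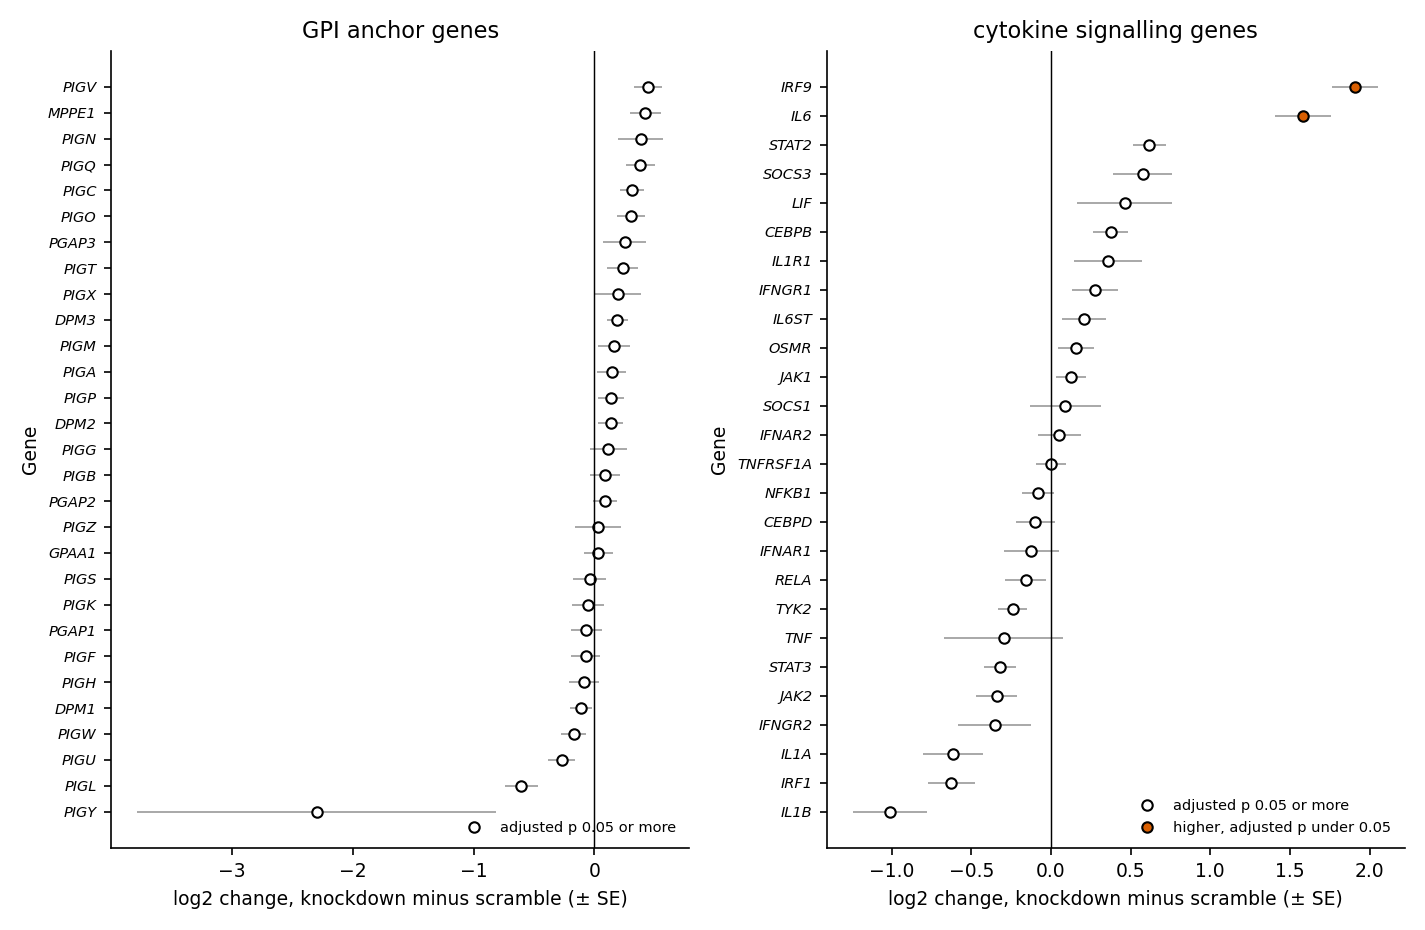
Log2 change, knockdown minus scramble, with its SE (horizontal axes) for 29 GPI anchor genes and 26 cytokine signalling genes (vertical axes), filled where the adjusted p was under 0.05. Only IRF9 and IL6 are filled, and the wide bar of PIGY comes from its value of 23.09 FPKM in scramble 2 alone.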

How the data were processed

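The authors deposited 1 table of FPKM values with 2 decimals for the 4 libraries. STAR and RSEM are named per the submitters' processing notes, without versions. Not given in the sources used here are the genome build, annotation, strand setting and filters. Depth is unknown, so no counting intervals are given. The fit left out 291033 rows with no gene name, which held 8.47% to 9.27% of each library's FPKM.

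From the FPKM, log2(FPKM + 1) was computed for the 12834 named genes whose mean reached 1 FPKM. The model was fitted in R 4.3.3 by limma 3.58.1, using lmFit and a trended eBayes, two-sided. P-values were adjusted by Benjamini and Hochberg over all of them, with a threshold of 0.05. No exact permutation test was used, since with 2 libraries a side its smallest p is 0.333. Samples were grouped by the genotype label.

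Members and lists were chosen with earlier results of these data known. Named were all members, NIPBL, every other complement gene tested but 1, those of the GPI anchor and cytokine lists that passed or had the smallest p (up to 4 a list), and the nearest protein-coding gene on each side of a member in RefSeq. Other genes named (PIGY, PIGA, IRF1, C2, C5, C1q and receptor genes, CR1, IFNB1, IFNG and markers) were chosen after their values were seen. PECAM1 had no matched row and was not used. The values of 2 list genes are not reported here, though they count in their lists.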

Additional observations from a re-analysis of the deposited data

How the results depend on the processing

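Settings tried were a pseudocount of 0.1, no filter on low values, a fit without a mean trend, quantile normalization, rows without a gene name tested too, the scramble libraries averaged into 1, and each library left out in turn. The tested members' log2 changes kept their sign under all of these, except C3, which ranged from -0.29 to 0.16. For the other tested members the groups do not overlap, so leaving out or averaging libraries or another pseudocount could not turn the sign. The fits without a mean trend, without the filter and with unnamed rows use the same values. The kept signs are therefore no test of stability. The log2 changes of C1R ranged from -1.49 to -0.89, of CD55 from -1.04 to -0.71, of CD46 from 0.20 to 0.83, of CFB from 0.29 to 0.60, of CD59 from 0.22 to 0.28 and of C1S from -0.28 to -0.049. Genes called numbered 328, and 1 with no filter on low values, 195 with unnamed rows tested too, 0 with the scramble libraries averaged, and from 0 to 4532 with a library left out. Members called ranged from 0 to 6, other complement genes called from 0 to 3, GPI anchor genes called from 0 to 5 and cytokine signalling genes called from 0 to 13 with a library left out. With no filter on low values and with the scramble libraries averaged, other complement genes called were 0 and cytokine signalling genes called 0, and with unnamed rows tested too cytokine signalling genes called were 1. Tested in the main fit were 7 members, 9 other complement genes, 29 GPI anchor genes and 27 cytokine signalling genes, beside 12834 genes in all. Nothing is read from how many of each list were called. The cause of these shifts was not tested. The sign turned for C1RL without scramble 1 (-0.17) and without hairpin 1 (-0.16). With a library left out GPR108 ranged from -0.096 to 0.36, ITGB2 from -0.010 to 0.41 and FBXO3 from -0.11 to 0.27, and C1RL reached 0.28. None of these had passed. No paired analysis was possible because the labels give the groups no shared replicate numbers. Depth is unknown, so values near 0 could not be told from failed detection.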
